A study of Mus musculus with 4 samples.

Results

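The genes described here are the interleukin-17 cytokines of lung γδ T cells, their receptor chains and the adaptor that relays their signal, in mice with and without Aire. They were picked out by gene symbol, as 8 of the 22865 genes in a table of read counts, with earlier results of these data known. The cytokines are Il17a, Il17f and Il22, the receptor chains Il17ra, Il17rc, Il17re and Il17rb, and the adaptor gene Traf3ip2. All 8 stood in the table, and 6 had enough counts to be tested, Il22 and Il17rb being too low. Female C57Bl/6 mice aged 10 weeks gave the lung cells, which were sorted in lots of 500 per library and amplified with Smart-Seq2, which makes full-length cDNA from very little RNA. The mice were Aire-/- (2 libraries), without the regulator by which thymic epithelium shows tissue proteins to young T cells, or Aire+/+ (2 libraries). All 4 libraries share the sort gate, which kept viable CD45+ TCRγδ+ cells negative for TCRβ, CD27 and the chains Vγ1, Vγ2, Vγ4 and Vγ5. The labels do not say how many animals gave each library or that libraries came from separate animals, so p-values measure only the spread between libraries, which may be technical.

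IL-17A and IL-17F are related secreted cytokines that form dimers with themselves or with each other. They signal through a receptor of IL-17RA and IL-17RC, while IL-17RA with IL-17RE is the receptor for the epithelial cytokine IL-17C and IL-17RA with IL-17RB the receptor for IL-25. All these chains recruit the adaptor Act1, the product of Traf3ip2. IL-22 belongs to the IL-10 family, uses IL-22RA1 and IL-10RB, and acts mainly on epithelium. In the lung, γδ T cells that were set to make IL-17 in the thymus are an early source of it in infection and inflammation.

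Il17a and Il17f are neighbours on chromosome 1. Il17a lies at 20730905 to 20734496 on the plus strand and Il17f at 20777146 to 20790617 on the minus strand (GRCm38, GENCODE M21), 42.6 kb apart. Il17re (chromosome 6, 113458484 to 113470758) is followed on the same strand after 668 bases by Il17rc (113471427 to 113483140), and Il17ra is on the same chromosome (120463247 to 120487559). Il22 is on chromosome 10 (118204942 to 118210047), as is Traf3ip2 (39612934 to 39655307), and Il17rb is on chromosome 14 (29996135 to 30008896). All 8 are protein-coding. Il17rb overlaps Actr8 on the opposite strand, and Traf3ip2 overlaps the antisense genes Gm16365 and E130307A14Rik. The use of strand in counting is not given in the sources used here, so reads of such partners cannot be told apart.

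The promoters of the cytokine pair are shown because Il17a was the most abundant of these genes and Il17f its closest relative. The promoter of Il17re is shown because Il17re had the smallest p of the 6 tested. Each line is the 250 bases before the RefSeq transcription start (GRCm38.p6), 5′ to 3′ on the gene's own strand. For Il17f and Il17re this start lies inside the longer GENCODE span given above. Capitals mark the hexamer AGGTCA, on either strand, which retinoid-related orphan receptors such as RORγt bind, and the TATA box TATAAA.
Il17a promoter (chr1:20730655-20730904, plus strand): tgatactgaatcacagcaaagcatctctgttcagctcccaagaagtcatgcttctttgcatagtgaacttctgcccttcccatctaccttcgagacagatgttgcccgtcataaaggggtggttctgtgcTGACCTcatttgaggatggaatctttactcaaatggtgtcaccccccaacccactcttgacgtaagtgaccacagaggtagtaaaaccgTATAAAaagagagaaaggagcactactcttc
Il17f promoter (chr1:20784271-20784520, minus strand): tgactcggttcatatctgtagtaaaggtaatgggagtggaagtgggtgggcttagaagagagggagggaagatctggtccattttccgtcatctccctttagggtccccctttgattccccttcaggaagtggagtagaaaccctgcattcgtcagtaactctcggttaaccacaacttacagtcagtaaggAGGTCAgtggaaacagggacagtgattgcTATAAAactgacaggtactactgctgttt
Il17re promoter (chr6:113458521-113458770, plus strand): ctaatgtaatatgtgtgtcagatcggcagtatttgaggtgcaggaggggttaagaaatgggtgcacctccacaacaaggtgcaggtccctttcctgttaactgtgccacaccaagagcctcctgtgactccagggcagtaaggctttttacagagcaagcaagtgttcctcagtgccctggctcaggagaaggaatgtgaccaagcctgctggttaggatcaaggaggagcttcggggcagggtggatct
In Il17a the hexamer starts at position -120, written there as its complement TGACCT, and the TATA box at -31, counted back from the start site. In Il17f the hexamer starts at -58 and the TATA box at -29. The Il17re window held neither. Of 32851 RefSeq promoter windows of this length, 14.0% held AGGTCA on either strand, 12.4% TATAAA on either strand and 1.89% both. The motifs do not overlap in these windows, and a match describes letters, not bound sites.

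Total counts ran from 1106891 to 1265239 per library. The single gene Rn45s took 20.4% and 19.4% of them in Aire-/- libraries, against 17.4% and 16.2% in Aire+/+ libraries. Libraries of 1 genotype were not copies: their counts differed by more than sampling noise, with chi-square over its degrees of freedom at 4.10 for the Aire-/- pair and 4.00 for the Aire+/+ pair. Aire had 0 counts in all 4 libraries, which allows up to 2.83 CPM (counts scaled to a common library total), so the deleted gene checked no label. All 9 markers fixed for γδ T17 cells, Il17a among them, had counts in every library. Their summed level was 5879 and 6625 CPM in Aire-/- against 4028 and 5388 CPM in Aire+/+ libraries. The marker Cd163l1 made up most of this sum, at 3891 and 4356 CPM in Aire-/- against 2604 and 3723 CPM in Aire+/+ libraries. All 7 B cell markers were also present in every library, although the gate was meant to exclude these cells, at 2313 and 1775 CPM in Aire-/- against 3619 and 2283 CPM in Aire+/+ libraries. Macrophage and monocyte markers (7 of 8 in the table, 5 with counts in every library) summed to 25.6 and 77.3 CPM in Aire-/- against 209 and 35.9 CPM in Aire+/+ libraries. Lung epithelial markers (6 of 6 in the table, 3 with counts in every library) summed to 15.5 and 14.1 CPM against 21.0 and 11.1 CPM in the same order of genotypes. Marker sums of further cell types reached at most 154 CPM in a library for endothelium, mostly Pecam1. They reached 137 CPM for type 2 innate lymphoid and Th2 cells, and 114 CPM for neutrophils, mostly Cxcr2. The part of these other cells in the results below was not tested beyond the values given. In such pooled RNA, fewer cells of a type and less RNA per cell cannot be told apart.

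**Figure D1:**
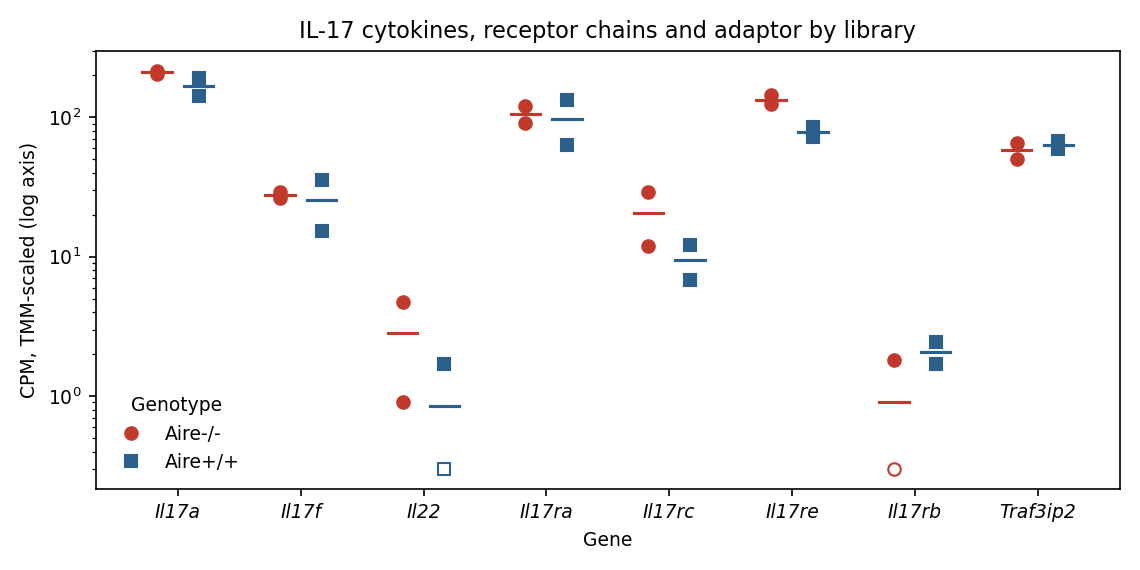
CPM scaled by TMM factors (log axis) of each gene in the 2 Aire-/- libraries (red circles, left) and the 2 Aire+/+ libraries (blue squares, right), with the mean as a line. Open symbols at the lower edge are libraries with 0 counts. For Il17re and Il17a the Aire-/- points lie above the Aire+/+ points, while Il22 and Il17rb lay under 5 CPM.

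Il17a transcripts were abundant in both genotypes, Il17f was present at a lower level, and Il22 was close to absent. Of the receptor chains, Il17re lay 1.71-fold higher in Aire-/- libraries and separated the genotypes, but did not pass the test over all genes. Il17ra, the shared chain, varied more between the Aire+/+ libraries than between genotypes. Il17rc had 8 to 31 counts per library, between percentiles 45.3 and 73.1 of detected genes by level per kilobase of transcript. Such middle ranks take few counts: Il22 reached percentile 50.3 in Aire-/- replicate 2 on 5 counts. Il17rb had at most 3 counts in any library. No member passed in either direction: edgeR's quasi-likelihood test with Benjamini-Hochberg adjustment called 0 of the 6 tested, where 0.0204% of all 9783 genes tested were called, 0 higher and 2 lower. At an unadjusted p under 0.05 there was 1 of 6, Il17re, against 5.57% of all genes. DESeq2's Wald test and limma-voom also called 0 of the 6.

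Il17a, the cytokine that names these cells, had 237 and 217 counts in Aire-/- libraries, against 177 and 224 in Aire+/+ libraries. Scaled to library size these were 216 and 205 CPM, against 143 and 192 CPM. After scaling the genotypes did not overlap, the Aire-/- pair being higher and Aire+/+ replicate 1 the lowest, while the raw counts overlapped. Such separation, in either direction, was seen for 34.4% of all genes tested, and 17.1% were higher in this way. The means of 211 ± 8.38 CPM for Aire-/- and 167 ± 34.4 CPM for Aire+/+ (SD, n = 2 each) gave a log2 fold change of 0.33 (SE 0.22, 95% interval -0.15 to 0.81, adjusted p = 0.94, edgeR). Without Aire+/+ replicate 1 it fell to 0.13, and without Aire+/+ replicate 2 it was 0.55.

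Set against the CD3 chains (Cd3d, Cd3e, Cd3g and Cd247), which mark T cells, Il17a had 15.6 and 13.6 counts per 100 CD3 counts in Aire-/- libraries, against 14.3 and 12.5 in Aire+/+ libraries. On this scale the genotypes overlapped (14.6 ± 1.39 against 13.4 ± 1.23, SD, n = 2 each; two-sided exact permutation p = 0.67, where 0.33 is the smallest that 2 against 2 allows). The Aire-/- mean was 9.04% above the Aire+/+ mean, and with Cd3e alone as the measure of T cells the difference turned to -6.72%.

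Il17f had 29 and 31 counts in Aire-/- libraries, against 44 and 18 in Aire+/+ libraries, or 26.5 and 29.2 CPM against 35.6 and 15.4 CPM. The Aire+/+ libraries held both the highest and the lowest value, with the Aire-/- pair between them. Its log2 fold change was 0.12 (SE 0.44, 95% interval -0.84 to 1.09, adjusted p = 0.99, edgeR), and it was -0.35 without Aire+/+ replicate 2 and 0.84 without Aire+/+ replicate 1. The 2.31-fold gap between the Aire+/+ libraries exceeded counting error alone (95% exact interval 1.31 to 4.25), and 7.08% of tested genes had a larger gap between them.

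Of the reads on Il17a and Il17f together, Il17a took 89.1% (Clopper-Pearson 95% interval 84.7 to 92.6) and 87.5% (82.7 to 91.3) in Aire-/- libraries, against 80.1% (74.2 to 85.1) and 92.6% (88.5 to 95.5) in Aire+/+ libraries. This share does not depend on library scaling, and intervals cover counting error only. The genotypes overlapped (two-sided exact permutation p = 1, the smallest possible being 0.33). The difference of means was 1.97 percentage points, and it turned to -4.26 without Aire+/+ replicate 1. The longest transcripts of the pair are alike, at 1171 and 1178 bases. Per kilobase of these, the level of Il17a was 8.22 and 7.04 times that of Il17f in Aire-/- libraries, against 4.05 and 12.5 times in Aire+/+ libraries. The mean transcript lengths differ more, at 1171 bases for Il17a and 799 for Il17f. With them the mean levels were 280 for Il17a and 57.7 for Il17f.

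Il22 had 1 and 5 counts in Aire-/- libraries, against 0 and 2 in Aire+/+ libraries. The 0 allows up to 2.42 CPM in that library, and the gene fell below the filter on low counts and was not tested. Its summed counts, 6 against 2, gave a scaled ratio of 3.35 with a 95% exact interval of 0.60 to 33.9, so no difference was detectable at this depth.

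The genes most like Il17a over the 4 libraries, among 1627 genes with a mean within 1 log2 unit of it, were Arrb1, Cdc42ep3 and Man2a2. Their centred log2 CPM differed from that of Il17a by a root mean square of 0.012, 0.035 and 0.037. Arrb1, which encodes β-arrestin 1, had 168 and 157 counts in Aire-/- libraries, against 126 and 159 in Aire+/+ libraries. With 4 points, likeness of this kind describes these libraries only.

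**Figure D2:**
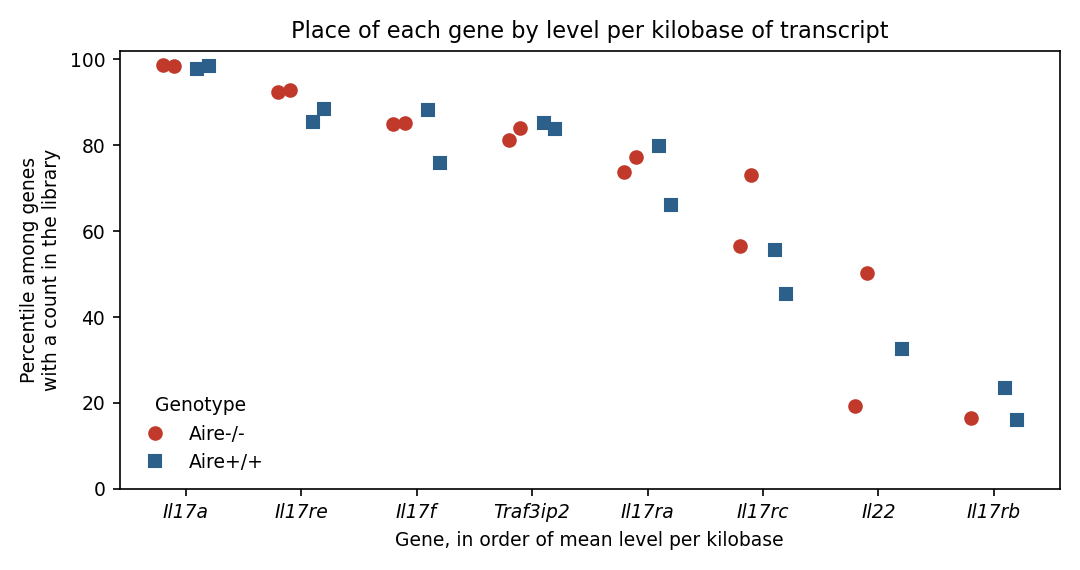
Percentile of each gene's level per kilobase among genes with a count in the same library, for Aire-/- (red circles, left) and Aire+/+ libraries (blue squares, right), with genes in order of mean level. Il17a lay between percentiles 97.8 and 98.7, and Il17ra and Il17rc between 45.3 and 79.9.

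Levels of different genes were compared per kilobase of the longest annotated transcript, scaled to a sum of 1000000 in each library. The order of the mean levels was Il17a, Il17re, Il17f, Traf3ip2, Il17ra, Il17rc, Il22 and Il17rb. With the mean length of a gene's transcripts in place of the longest, Traf3ip2 moved to second place, above Il17re in 2 of 4 libraries, and the other genes kept their order. With longest transcripts, Il17a had a level of 580 and 542 in Aire-/- libraries, against 366 and 495 in Aire+/+ libraries, between the 97.8th and 98.7th percentile of detected genes. It stood clear of the next gene, Il17re, whose highest level was 152. The neighbours Il17re and Il17f, Il17f and Traf3ip2, Il17ra and Il17rc, Il17rc and Il22, and Il22 and Il17rb overlapped over the libraries, so their order is not fixed beyond the spread. Traf3ip2 lay above Il17ra in 4 of 4 libraries, with the lowest Traf3ip2 level at 54.9 and the highest Il17ra level at 51.2.

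Il17re, the chain that with IL-17RA binds IL-17C, had 136 and 153 counts in Aire-/- libraries, against 89 and 99 in Aire+/+ libraries, or 124 and 144 CPM against 71.9 and 84.7 CPM. The genotypes did not overlap, in raw counts or after scaling, with the Aire-/- pair higher. The replicates were close, 1.16-fold apart in Aire-/- and 1.18-fold in Aire+/+ libraries, both within counting error. The log2 fold change was 0.78 (SE 0.24, 95% interval 0.26 to 1.30), at an unadjusted p of 0.0069 and an adjusted p of 0.83 over all genes by edgeR. It ranked number 76 of 9783 genes by p, and 4.24% of tested genes had a higher log2 fold change.

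The difference in Il17re stayed positive with each library left out, between 0.66 and 0.90, with adjusted p from 0.38 to 1.00. Per 100 CD3 counts, Il17re stood at 8.94 and 9.59 in Aire-/- libraries, against 7.17 and 5.53 in Aire+/+ libraries, again without overlap (two-sided exact permutation p = 0.33, the smallest possible). The γδ T17 markers summed higher in the same Aire-/- libraries, as given above, and their part in the difference was not tested.

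**Figure D3:**
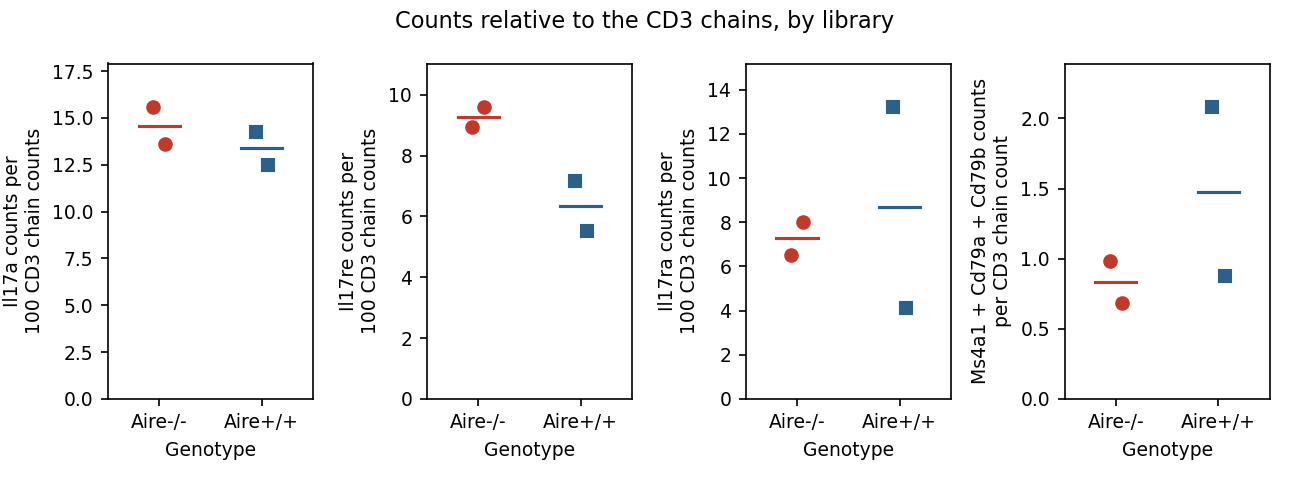
Counts of Il17a, Il17re and Il17ra per 100 counts of the CD3 chains, and of the B cell genes Ms4a1, Cd79a and Cd79b per CD3 count, in Aire-/- (red, left) and Aire+/+ libraries (blue, right), with means as lines. Il17re values did not overlap between genotypes, and Aire+/+ replicate 1 was highest for both Il17ra (13.2) and the B cell genes (2.08). That library also had the fewest CD3 counts (1242), which divide every value here.

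Il17rc, the partner of IL-17RA for IL-17A and IL-17F, had 13 and 31 counts in Aire-/- libraries, against 15 and 8 in Aire+/+ libraries, or 11.9 and 29.2 CPM against 12.1 and 6.84 CPM. Aire-/- replicate 2 stood above the other 3 libraries, and Aire-/- replicate 1 lay between the Aire+/+ pair. The log2 fold change of 1.10 (SE 0.60, 95% interval -0.20 to 2.39, adjusted p = 0.91, edgeR) rested on Aire-/- replicate 2, without which it was 0.31. Leaving out the other 3 libraries in turn gave 1.61 (Aire-/- replicate 1), 1.56 (Aire+/+ replicate 1) and 0.75 (Aire+/+ replicate 2). Il17rc lies just downstream of Il17re, and had 9.56 and 20.3 counts per 100 Il17re counts in Aire-/- libraries, against 16.9 and 8.08 in Aire+/+ libraries.

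Il17ra, the chain common to the IL-17 receptors, had 99 and 128 counts in Aire-/- libraries, against 164 and 74 in Aire+/+ libraries, or 90.4 and 120.7 CPM against 132.5 and 63.3 CPM. The Aire+/+ libraries held both extremes and differed 2.09-fold (95% exact interval 1.58 to 2.79), a gap larger than counting error. The log2 fold change was 0.10 (SE 0.32, 95% interval -0.60 to 0.81, adjusted p = 0.99, edgeR), and its sign depended on single libraries. It was 0.73 when Aire+/+ replicate 1 was left out, -0.33 when Aire+/+ replicate 2 was, and -0.12 when Aire-/- replicate 2 was. The B cell genes Ms4a1, Cd79a and Cd79b were also highest in Aire+/+ replicate 1. They had 0.985 and 0.681 counts per CD3 count in Aire-/- libraries, against 2.08 and 0.873 in Aire+/+ libraries. Aire-/- replicate 2 had the lowest value for these genes, but more Il17ra than Aire-/- replicate 1 and Aire+/+ replicate 2. Macrophage and monocyte markers, like Il17ra, summed highest in Aire+/+ replicate 1. Their sums were 25.6 and 77.3 CPM in Aire-/- libraries, against 209 and 35.9 CPM in Aire+/+ libraries. Most of the highest sum was Lyz2, with 0.913 and 57.5 CPM in Aire-/- libraries, against 150 and 1.71 CPM in Aire+/+ libraries. Csf1r, Cd14 and Mrc1 were also highest in Aire+/+ replicate 1. By contrast, Emr1 and Fcgr1 were highest in Aire-/- replicate 1 and Cd68 in Aire-/- replicate 2. Whether any of these genes bear on Il17ra was not tested.

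Per kilobase of the longest transcript, the level of Il17ra exceeded that of Il17rc in each library. It was 2.26 and 1.23 times as high in Aire-/- libraries, against 3.25 and 2.75 times in Aire+/+ libraries. The level of Il17re exceeded that of Il17rc by 8.19 and 3.86 times in Aire-/- libraries, against 4.65 and 9.69 times in Aire+/+ libraries. Of these partner chains, the one for IL-17C was the more abundant transcript in 4 of 4 libraries. With mean transcript lengths the mean levels were 39.5 for Il17ra, 88.4 for Il17re and 24.5 for Il17rc. Ratios by library were not computed with those lengths.

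Il17rb, the chain for IL-25, had 2 and 0 counts in Aire-/- libraries, against 3 and 2 in Aire+/+ libraries, and was not tested. The 0 allows up to 2.83 CPM, and the summed counts of 2 against 5 gave a ratio of 0.45 with a 95% exact interval of 0.043 to 2.73. Actr8, which overlaps it on the other strand, had 34 to 83 counts per library.

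Traf3ip2, the gene for Act1, had 55 and 70 counts in Aire-/- libraries, against 84 and 69 in Aire+/+ libraries, or 50.2 and 66.0 CPM against 67.9 and 59.0 CPM. The genotypes overlapped, and the log2 fold change was -0.13 (SE 0.29, 95% interval -0.77 to 0.51, adjusted p = 0.99, edgeR), or 0.062 without Aire-/- replicate 1. Its antisense neighbour E130307A14Rik had 5 to 15 counts per library.

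**Figure D4:**
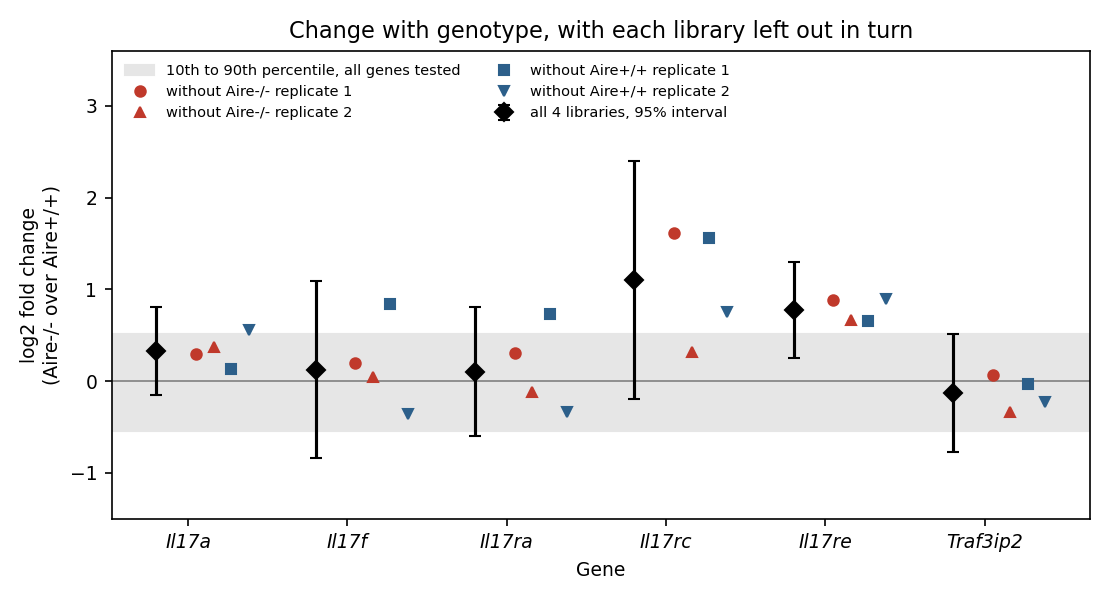
Log2 fold change (Aire-/- over Aire+/+) of the 6 tested genes with all 4 libraries (black diamonds, 95% interval) and with each library left out in turn (coloured symbols), on the 10th to 90th percentile of all genes tested (grey, -0.55 to 0.52). Il17a, Il17rc and Il17re stayed above 0 throughout, while Il17f, Il17ra and Traf3ip2 changed sign.

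Across the 6 tested genes, 5 log2 fold changes lay above 0 with a median of 0.23, where over all genes tested 50.9% lay above 0 and the median was 0.01. Of the 6, 2 separated the genotypes on the higher side and 0 on the lower, against 17.1% and 17.3% of all genes.

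Of 8 further family and receptor genes, 3 could be tested, with a median log2 fold change of 0.08. Of these 3, 0 passed in either direction, against 0.0204% of all genes. An unadjusted p under 0.05 by edgeR was seen for 0 of them, against 5.57% of all genes. DESeq2 and limma-voom called 0 in this list and in the 3 lists that follow. Il17c, the ligand of the IL-17RE receptor, had 1 to 4 counts per library, Il17d had 0 to 3 and Il25 had 0 in all 4. These 3 were named after their values were seen. Il22ra1, the IL-22 receptor chain typical of epithelium, had 19.2 and 21.7 CPM in Aire-/- libraries, against 11.3 and 20.5 CPM in Aire+/+ libraries (log2 fold change 0.36, adjusted p = 0.98, edgeR). Its values overlapped. Il10rb, the second chain of the IL-22 and IL-10 receptors, had 25.6 and 52.8 CPM against 52.5 and 21.4 CPM (0.08, adjusted p = 0.99), and Il17rd, a relative of the receptor chains known as an inhibitor of fibroblast growth factor signalling, had 13.7 and 12.3 CPM against 17.8 and 10.3 CPM (-0.11, adjusted p = 0.99), in the same order of genotypes. Both overlapped.

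Of 29 genes that relay or restrain the receptor signal, 26 were tested and 0 passed, against 0.0204% of all genes. Of these 26, 15 lay above 0 and 11 below, with a median of 0.09, where 50.9% of all genes lay above 0. At an unadjusted p under 0.05 there were 3 of 26 by edgeR, against 5.57% of all genes, with 1 by DESeq2 and 2 by limma-voom. The shares over all genes by DESeq2 and limma-voom are not reported here. The genotypes separated for 8 on the higher and 4 on the lower side, against 17.1% and 17.3% of all genes. Nfkbiz, which encodes IκBζ and is itself an IL-17 target in other cells, had 132 and 304 CPM in Aire-/- libraries, against 154 and 90.7 CPM in Aire+/+ libraries. Only Aire-/- replicate 2 exceeded both Aire+/+ libraries (log2 fold change 0.83, adjusted p = 0.89, edgeR). Tnfaip3, the gene of the inhibitory enzyme A20, had 551 and 802 CPM in Aire-/- libraries, against 480 and 496 CPM in Aire+/+ libraries (0.47, adjusted p = 0.89). Traf4, a competitor of TRAF6 for Act1, had 29.2 and 38.7 CPM in Aire-/- libraries, against 13.7 and 22.2 CPM in Aire+/+ libraries (0.91, adjusted p = 0.89). Both of these separated the genotypes. Cebpb and Cebpd, transcription factors that carry the response in epithelium and fibroblasts, had at most 1 and 7 counts in any library, and were named after their values were seen.

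Of 21 target genes known from epithelial, stromal and myeloid cells, 20 were too low to test. Cxcl5, a neutrophil chemokine, was the exception, with 18.3 and 22.6 CPM in Aire-/- libraries, against 16.2 and 31.7 CPM in Aire+/+ libraries (-0.22, adjusted p = 0.99, edgeR). Csf2, the gene of GM-CSF, which T17 cells can also make, had 19 and 8 counts in Aire-/- libraries, against 2 and 6 in Aire+/+ libraries, and Il6 had 1 and 0 counts against 13 and 0. Neither was tested, and both were named after their values were seen.

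**Figure D5:**
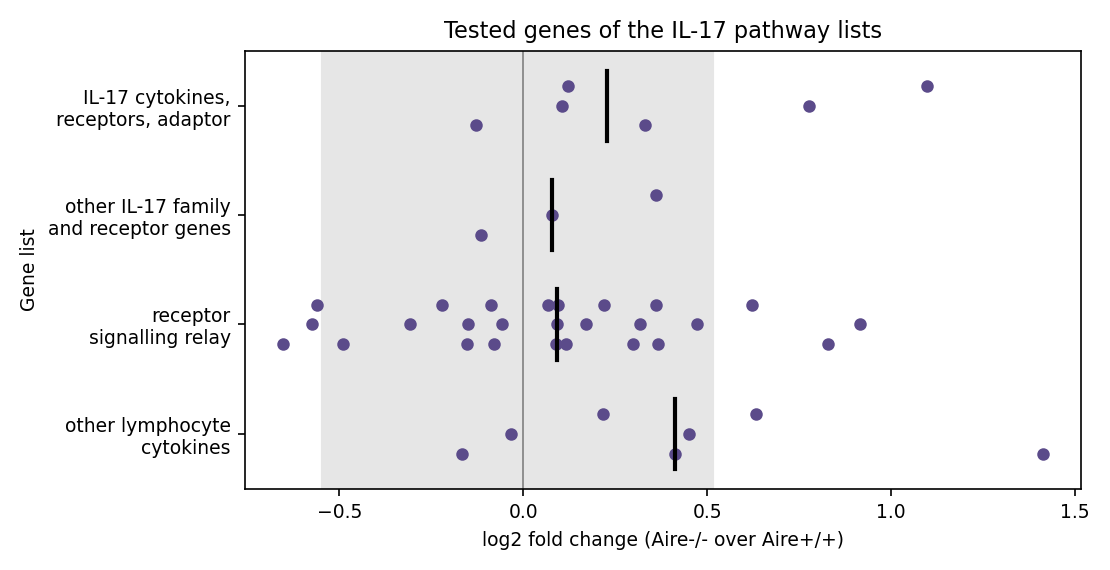
Log2 fold change (Aire-/- over Aire+/+) of each tested gene in 4 lists, with the list median as a black bar and the 10th to 90th percentile of all genes tested in grey. Points are staggered vertically for legibility, and the 1 tested target gene, Cxcl5, is left out. Tnfsf11 (1.41) lies farthest to the right.

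Among 17 other lymphocyte cytokines, 7 were tested and 0 passed, against 0.0204% of all genes. Of these 7, 5 lay above 0, against 50.9% of all genes, with a median of 0.41. Tnfsf11 alone had an unadjusted p under 0.05 by edgeR, against 5.57% of all genes, and there were 0 by DESeq2 and 0 by limma-voom. Ifng, the cytokine of type 1 cells, had 2 and 1 counts in Aire-/- libraries, against 2 and 3 in Aire+/+ libraries, Il21 had 2 to 8 per library, and Il13 and Il9 had 0 in all 4. These were named after their values were seen. Tnfsf11, the gene of RANKL, had 15.5 and 35.8 CPM in Aire-/- libraries, against 9.70 and 9.41 CPM in Aire+/+ libraries (log2 fold change 1.41, adjusted p = 0.89, edgeR). Areg, an epidermal growth factor receptor ligand of tissue repair, had 43.8 and 67.9 CPM against 25.1 and 47.1 CPM (0.63, adjusted p = 0.93), and Tnf, an inflammatory cytokine that acts together with IL-17, 74.0 and 76.4 CPM against 46.9 and 63.3 CPM (0.45, adjusted p = 0.94), in the same order of genotypes. The values of Areg overlapped. In this list 2 genes separated the genotypes on the higher side, Tnfsf11 and Tnf, and 1 on the lower, against 17.1% and 17.3% of all genes. The lower one was Mif, an inflammatory cytokine named after its values were seen, with 71.2 and 78.3 CPM in Aire-/- libraries, against 87.3 and 80.4 CPM in Aire+/+ libraries (-0.17, adjusted p = 0.98, edgeR).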

How the data were processed

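The authors deposited whole-number read counts per gene symbol, 1 column per library, per the file headers. TopHat2 2.0.10, Cufflinks 2.2.1 and mm10 are named without role, per the submitters' processing notes. The counting tool, annotation, use of strand and duplicate handling are, in the sources used here, not given. Smart-Seq2 reads without molecular identifiers are not independent molecules, so intervals and floors (3 counts for a 0) cover counting error only.

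Genotypes came from the titles. Counts were fitted with edgeR 4.0.16 (R 4.3.3; limma 3.58.1 and DESeq2 1.42.0 as alternatives) using TMM and filterByExpr (minimum count 10, total 15), with genotype alone and adjustment over all genes, called at an adjusted p under 0.05. The SE is the absolute log2 fold change over the square root of F, and 95% intervals use it, so both are approximate. The fit was also run on simulated counts with known changes. The share of changes it recovered is not reported here, so a gene that was not called may still differ. GENCODE M21 gave lengths for 98.4% of symbols. Python 3.11.15 was used with scipy 1.17.1.

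Members and lists were chosen with earlier results of these data known. The text names all members, the 3 list genes with the smallest p in each list, and the 3 genes most like Il17a (log2 CPM, prior count 2); others are marked. Alternatives were other size factors, DESeq2, limma-voom, 2 other filters, Rn45s left out, CD3 scaling, a replicate block, a looser threshold and each library left out, plus other lengths and backgrounds for ranks.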

Additional observations from a re-analysis of the deposited data

How the results depend on the processing

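No member was called under any of the alternatives to the fit that were run, and Il17a, Il17rc and Il17re kept a positive log2 fold change in all 13. Il17re ranged from 0.55 to 0.90. Scaling to CD3 chain counts moved the median of all genes to -0.24. With it Il17f stood at -0.21 and Il17ra at -0.24, which turned their sign but lay close to that median. With single libraries left out, Il17f ranged from -0.35 to 0.84, Il17ra from -0.33 to 0.73 and Traf3ip2 from -0.34 to 0.062, and the Il17a share difference from -4.26 to 8.21 percentage points. With Cd3e alone the Il17a difference per T cell count was -6.72%. Over all genes, calls higher and lower in Aire-/- were 0 and 2, against 21 and 26 with no filter beyond a count above 0. There was 1 lower by limma-voom and 7 lower with CD3 scaling. Leaving out single libraries gave 5 to 21 higher and 6 to 42 lower; the lone library of a genotype is then assumed to vary like the other pair. The replicate block gave 2 higher and 4 lower and called no member. Same-numbered libraries did not deviate together (r = -0.08), so the numbers are not taken as pairs. The cause of the shifts between fits was not tested. With mean transcript lengths, ranks per kilobase moved from 98.4 to 96.5 for Il17a and from 89.8 to 85.9 for Il17re. Traf3ip2 moved from 83.5 to 88.7, above Il17re. The length used changed from 2940 to 2087 bases for Il17re and from 2867 to 1022 for Traf3ip2, and was 1171 for Il17a both times. Among genes with a count in all 4 libraries, Il17a ranked 98.0, Traf3ip2 79.4 and Il17ra 67.8, the last against 74.3 before. Il22 and Il17rb fell below the count filter of the main fit and were not tested there.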
